A study of Mus musculus with 2 samples.

Results

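The imprinted growth regulators examined here were 33 mouse genes expressed mainly or, in some tissues only, from one parental allele. They were chosen by symbol, and 63 probes of the array carried one of these names. Of the 33 genes, 12 are known to be expressed from the maternal allele and 20 from the paternal allele, and Gnas was put in neither class because its transcripts differ in the allele they use. In all, 32 of the 33 genes were measured, among 20923 genes tested on the array, which left 20891 other genes. Rtl1, a retrotransposon-derived gene needed in the placenta, was not well above background in any of the 4 channels, so no fold is given for it.

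Imprinted genes are often controlled by a DNA methylation mark set in one parent's germ line, and one allele is mainly silent in the offspring. Many lie in clusters in which a long non-coding RNA or an insulator silences neighbours on one chromosome. Several act on growth of the embryo and placenta, and in general paternally expressed members tend to favour growth and maternally expressed members to restrain it. An array measures the sum of both alleles and does not tell them apart.

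RNA of mutant and control ureters of NMRI mouse embryos at stage E13.5 was hybridised together on each of 2 two-colour Agilent arrays. In the mutant pools, called Fgfr2cKO, a Pax2-cre transgene was combined with Fgfr2(fl/fl) and with Fgfr1(fl/?). The control pools carried Fgfr2(fl/?) and Fgfr1(fl/?) without the transgene. The question mark stands for a floxed or wild-type allele, and mutant ureters that differed in their Fgfr1 alleles were collected together, while the controls carried floxed alleles too. Pax2 is active in the Wolffian duct and its derivatives, so Cre acts in part of the cells of a ureter, while whole ureters were measured. Female ureters were on the first array, where the mutant RNA carried Cy5, and male ureters on the second, where it carried Cy3, so that sex, dye orientation and array cannot be told apart. How many embryos made up a pool is unstated in the sources used here. The p-values rest on the spread between 2 arrays and on spread borrowed from all genes, and do not measure that between embryos. Ratios are log2 mutant over control, and levels are log2 normalised intensities of a probe. Fewer cells of a type and less RNA per cell cannot be told apart in pooled tissue.

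Between 67.9% and 77.0% of probes were well above background in the 4 channels. The 5 probes of Fgfr1 and Fgfr2 had mean ratios from -0.084 to 0.27 and none passed the test (lowest unadjusted p = 0.161, limma). Where the floxed segments lie is unstated in the sources used here, so these probes may fall outside them. All 8 markers of ureteric mesenchyme and all 10 of ureteric epithelium looked at were measured above background, as the tissue label implies. The male array stood apart at Xist, which coats the inactive X chromosome. Its brighter probe read 8.39 for mutant RNA and 9.99 for control RNA there, and 12.42 for mutant and 12.43 for control RNA on the female array. Y-linked Ddx3y read 11.88 for mutant and 11.57 for control RNA on the male array, and 8.15 for mutant and 8.44 for control RNA on the female array. Eif2s3y, also Y-linked, went the other way on the male array, with 11.22 for mutant and 11.52 for control RNA. A second Xist probe had a ratio of -1.23 on the male array. Whether the control pool labelled male held some female tissue was not tested, and ratios of the male array carry that doubt. The main values below are therefore also given for each array.

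Probe sequences are shown for 2 long non-coding RNAs of the set whose probes gave different ratios. The probes of a gene differ in position and in brightness, and the part of either was not tested. They are given 5′ to 3′ as the array files hold them, with positions on mm9 from the same files, and probes are numbered from the brightest. H19 lies on the minus strand of chromosome 7 and Meg3 on the plus strand of chromosome 12.
H19 probe 1, chr7:149761492-149761551: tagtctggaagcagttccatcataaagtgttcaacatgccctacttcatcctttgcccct
H19 probe 2, chr7:149762417-149762476: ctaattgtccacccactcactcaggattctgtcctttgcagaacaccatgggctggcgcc
Meg3 probe 1, chr12:110809678-110809737: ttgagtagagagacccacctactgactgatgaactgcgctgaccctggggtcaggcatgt
Meg3 probe 3, chr12:110799558-110799617: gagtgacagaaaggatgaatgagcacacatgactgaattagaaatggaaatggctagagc

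No imprinted gene passed the test across all genes. In limma with Benjamini-Hochberg adjustment, 0 of 32 members passed an adjusted p of 0.05, against 6 of 20923 genes (0.0287%), and the lowest adjusted p of a member was 0.9998. At an unadjusted p under 0.05 there was 1 member, Grb10, which was lower in the mutant, against 3.99% of all genes (2.57% higher and 1.42% lower). At the brightest probe, a difference of 1.5-fold or more in one direction on each array was seen for 0 members, against 0.296% of all genes higher and 0.0956% lower. By the mean ratio alone that fold was reached by 0 members, against 1.08% of all genes higher and 0.282% lower. The mean ratios of the members ran from -0.41 to 0.21. Their median size without regard to sign was 0.088, and that of all genes was 0.091.

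The intervals describe the brightest probe of each gene only. The 95% limma interval of the ratio lay within 2-fold in either direction for 32 of 32 measured members, and within 1.5-fold for 28 of them. Half-widths of the intervals ran from 0.34 to 0.48. The interval of Peg10 reached lowest, to -0.84, and that of Dlk1 highest, to 0.57. Dimmer probes of Meg3 and Gnas, described below, had mean ratios above the intervals of their brightest probes (-0.26 to 0.43 for Meg3 and -0.39 to 0.31 for Gnas). These intervals rest on 1 residual degree of freedom and on the spread borrowed from all genes, and a p that misses the threshold does not show that a gene was the same in both groups.

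**Figure D1:**
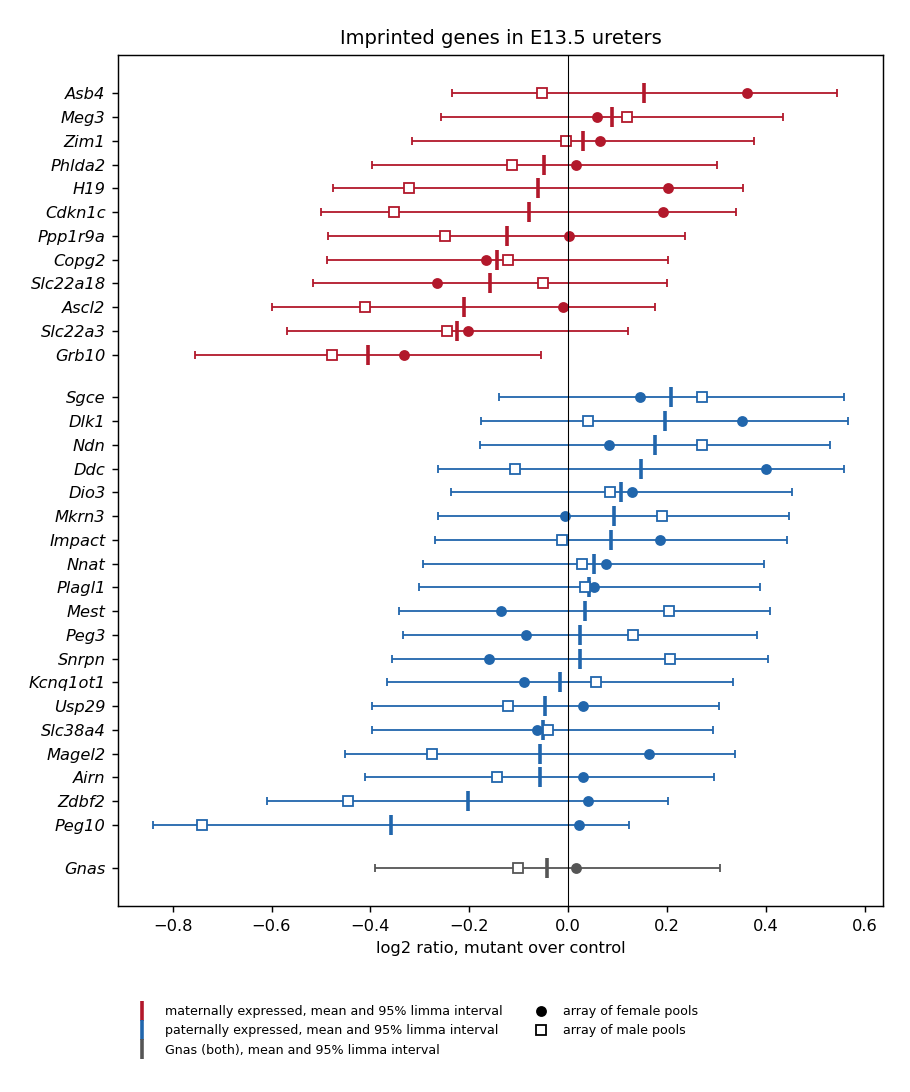
The log2 ratio of mutant over control (horizontal axis) is plotted for each measured imprinted gene, by the allele expressed. Filled circles are the array of female pools, open squares the array of male pools, vertical ticks their mean and bars the 95% limma interval. The interval of Grb10 alone lies on one side of 0.

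Grb10 had the lowest mean ratio as processed here, while Peg10 was lower with the processed signals (-0.62 against -0.43 for Grb10), with a normexp offset of 0 (-0.52 against -0.41) and in the authors' deposited table (-0.57 against -0.42). It encodes an adaptor that inhibits signalling by the insulin and IGF1 receptors and restrains fetal growth. Its only probe, on chr11:11833165-11833224, read 12.95 for mutant and 13.29 for control RNA on the female array. The male array gave 12.04 for mutant and 12.52 for control RNA. The mutant was the lower channel on each array, although the levels of the groups overlapped, both channels of the male array being below those of the female array. The mean ratio was -0.41 ± 0.10 (SD, n = 2 arrays), 1.32-fold lower in the mutant, with an interval from -0.76 to -0.055 (limma unadjusted p = 0.0291, adjusted p = 0.9998). Its ratio was also below 0 under each alternative processing, and its adjusted p stayed above 0.05 in all that give a test. With the 4 channels fitted separately the lowest unadjusted p of any member was 0.136 in limma. With a normexp offset of 0 that lowest p was 0.0494. Ddc, the neighbouring gene for aromatic amino acid decarboxylase, was at 0.40 on the female and -0.11 on the male array, and at 0.25 and 0.24 at its dimmer probe.

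Grb10 has 2 start windows in RefSeq, and its single probe does not separate transcripts that begin at one or the other. The windows are shown because DNA methylation, a mark often behind imprinting, sits at CG dinucleotides, which are in capitals. Each sequence is the 250 bases before a start on the minus strand of GRCm38.p6, from RefSeq. No methylation was measured here.
Grb10 start 1, chr11:12037421-12037670: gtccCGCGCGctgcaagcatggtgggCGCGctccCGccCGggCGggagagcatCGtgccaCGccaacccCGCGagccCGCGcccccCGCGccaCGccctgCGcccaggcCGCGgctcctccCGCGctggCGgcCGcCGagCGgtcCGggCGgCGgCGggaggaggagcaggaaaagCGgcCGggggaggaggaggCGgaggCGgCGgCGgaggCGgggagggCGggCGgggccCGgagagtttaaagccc
Grb10 start 2, chr11:12027972-12028221: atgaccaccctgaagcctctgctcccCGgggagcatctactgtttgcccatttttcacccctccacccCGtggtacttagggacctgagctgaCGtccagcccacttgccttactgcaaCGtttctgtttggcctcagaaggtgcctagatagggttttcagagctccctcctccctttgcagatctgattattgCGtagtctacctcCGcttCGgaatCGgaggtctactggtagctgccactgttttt
The first window holds 40 CG dinucleotides and the second 8. Over the full 300-base windows around starts, 43 windows of 27 members had a median of 11 CG dinucleotides, and all 32851 windows had a median of 7.

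The maternally and paternally expressed classes were set side by side by counts and medians. Among the 12 maternally expressed members, 1 was higher and 5 were lower on both arrays, compared with 22.1% and 21.4% of all genes. Of 19 measured paternally expressed members, 1 was lower and 6 were higher on both arrays. The maternally expressed members had a median ratio of -0.10 (0.0090 on the female and -0.18 on the male array). The paternally expressed members had a median of 0.034 (0.040 on the female and 0.034 on the male array). The difference of the medians, maternally minus paternally expressed, was therefore -0.031 on the female array, -0.22 on the male array and -0.14 over both. It was -0.049 without members measured by 1 probe alone, with a maternally expressed median of -0.015, and -0.070 with the mean over the probes of each gene. It was larger on the male array, where 11 of 12 maternally expressed members were lower, against 49.1% of all genes. On the female array 5 of these 12 were lower, against 50.2% of all genes. Of all 32 members, 21 were higher on the female array and 12 on the male array, where 49.8% and 50.9% of all genes were. Ratios of all genes spread more on the male array (SD 0.32) than on the female array (SD 0.21). Across all genes the ratios of the 2 arrays did not go together (Pearson r = -0.024, Spearman rho = -0.13).

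Under median centring in place of loess the paternally expressed median was -0.11, and with the mean over the probes of each gene it was -0.038, so the sign of that median depended on the processing. Members counted as higher or lower on both arrays numbered 7 and 6 in all (21.9% and 18.8% of 32), close to the shares of all genes. With median centring they numbered 1 and 16, beside shares of 15.4% higher and 38.2% lower among all genes, whose median was then -0.085. No test was made of the classes, since members of a cluster share regulation and are not replicates.

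**Figure D2:**
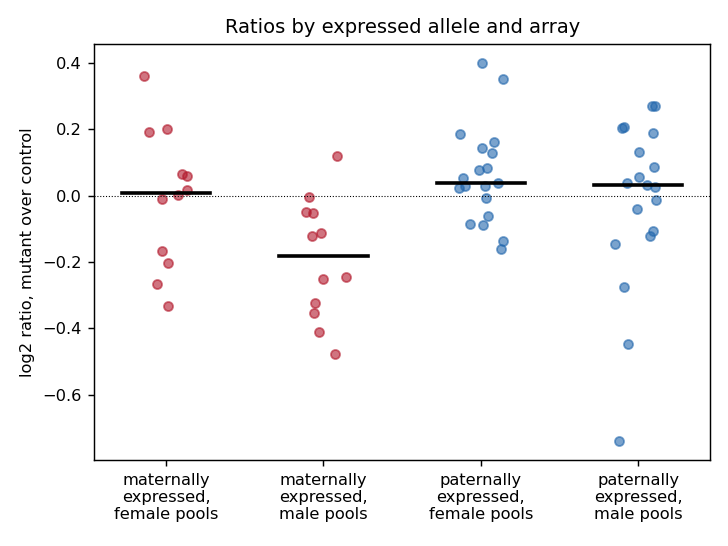
Each point is the log2 ratio of mutant over control of one imprinted gene, by expressed allele and by array, and the bar is the median. The medians are 0.0090 and -0.18 for maternally expressed genes and 0.040 and 0.034 for paternally expressed genes, on the female and the male array.

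Markers of several other cell types were higher in the mutant on both arrays. A marker was measured if 1 group alone was well above background on both arrays. Control levels of the liver marker Apoa1 (6.29 and 6.23) and the leukocyte marker Ngp (6.33 and 6.21) lay below all control levels counted as well above background. So did that of the liver marker Apob on the male array (6.34). At least these markers entered through the mutant channels only, which favours a higher ratio in advance. Of 14 leukocyte markers, 12 were higher and 0 lower on both arrays (median 0.52), and their summed linear level was 16608 and 17484 in the mutant against 9287 and 9429 in the control channels of the female and male array. Of 14 measured erythroid markers, 12 were higher on each array (median 0.97 on the female and 0.39 on the male array), with sums of 858763 and 788332 in the mutant against 332354 and 594530 in the control channels. All 11 liver markers were higher on each array (median 1.05 on the female and 0.19 on the male array), with sums of 11970 and 8432 in the mutant against 5051 and 5772 in the control channels. Of 9 measured skeletal muscle markers, 6 were higher on both arrays (median 0.68), with sums of 24624 and 21201 in the mutant against 21471 and 20271 in the control channels, while Myf5, Myf6 and Ckm were not measured above background. Of 9 neuron and neural crest markers, 8 were higher on both arrays (median 0.37), with sums of 11638 and 11911 in the mutant against 7669 and 10227 in the control channels. The median of the mean ratios was 0.013 for 6 endothelial markers (0.069 on the female and 0.036 on the male array). It was 0.054 for 5 measured gonad and adrenal markers (0.25 on the female and -0.042 on the male array). For 8 nephron progenitor markers it was 0.12, although the median on each array was below 0 (-0.029 on the female and -0.057 on the male array). Mesenchymal markers of the ureter were lower for 6 of 8 on both arrays (median -0.30, with -0.089 on the female and -0.48 on the male array). The other 2, Acta2 and Tagln, were higher on both arrays. Of 10 markers of ureteric epithelium, 5 were lower and 3 higher on both arrays (median -0.13, with -0.20 on the female and -0.039 on the male array). Several imprinted genes, H19 and Dlk1 among them, are abundant in fetal liver and muscle. The part of these cell types in the ratios of the imprinted genes was not tested.

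The 3 measured members of the Dlk1-Dio3 cluster on chromosome 12 were higher on both arrays, against 22.1% of all genes, and none passed the test. Meg3 was lower under median centring (-0.091). Mirg, a non-coding RNA of the same cluster outside the 33 genes, was lower on both arrays (-0.12 and -0.037). Dlk1, a paternally expressed Delta-like protein that restrains differentiation of precursor cells, was at 15.07 and 14.97 in the mutant and 14.72 and 14.93 in the control channels of the female and male array. Both mutant levels were above both control levels, by very little on the male array (ratios 0.35 and 0.040, mean 0.20 ± 0.22, n = 2). At its dimmer probe the ratios were 0.28 and -0.030. Dio3, the paternally expressed enzyme that inactivates thyroid hormone, was at 6.66 and 6.56 in the mutant and 6.53 and 6.47 in the control channels, at a dim probe, with a mean ratio of 0.11 ± 0.031. That ratio was 0.37 with the processed signals, 0.23 with a normexp offset of 0 and 0.42 in the authors' deposited table. Groups that did not overlap in this way were found for 12.1% of all genes in the higher and 11.5% in the lower direction, and for 4 and 3 of the 32 members.

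Meg3, the maternally expressed non-coding RNA of that cluster, gave different sizes at its probes. Probe 1 was at 15.42 and 15.51 in the mutant and 15.37 and 15.39 in the control channels. At probe 2 the mutant levels were 11.8325 and 12.1441, and the control levels 11.0015 and 11.4260. Both mutant levels were above both control levels at these 2 probes, by far more at probe 2. Probe 3 was at 10.72 and 11.07 in the mutant and 10.05 and 10.68 in the control channels, so that the groups were narrowly separate there too. The mean ratios were 0.089 ± 0.042, 0.77 ± 0.080 and 0.53 ± 0.20 for probes 1, 2 and 3 (SD, n = 2 arrays). Tested over all 27493 probes in limma, the unadjusted p was 0.560, 0.00100 and 0.0105, and the adjusted p 0.9998, 0.542 and 0.9998. Probe 3 lies upstream of probe 1 on the plus strand, as the positions above show, and no probe was saturated. The brightest probe stands for the gene in the counts above, so the value of 0.089 describes probe 1 only. Why the probes differed was not tested.

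**Figure D3:**
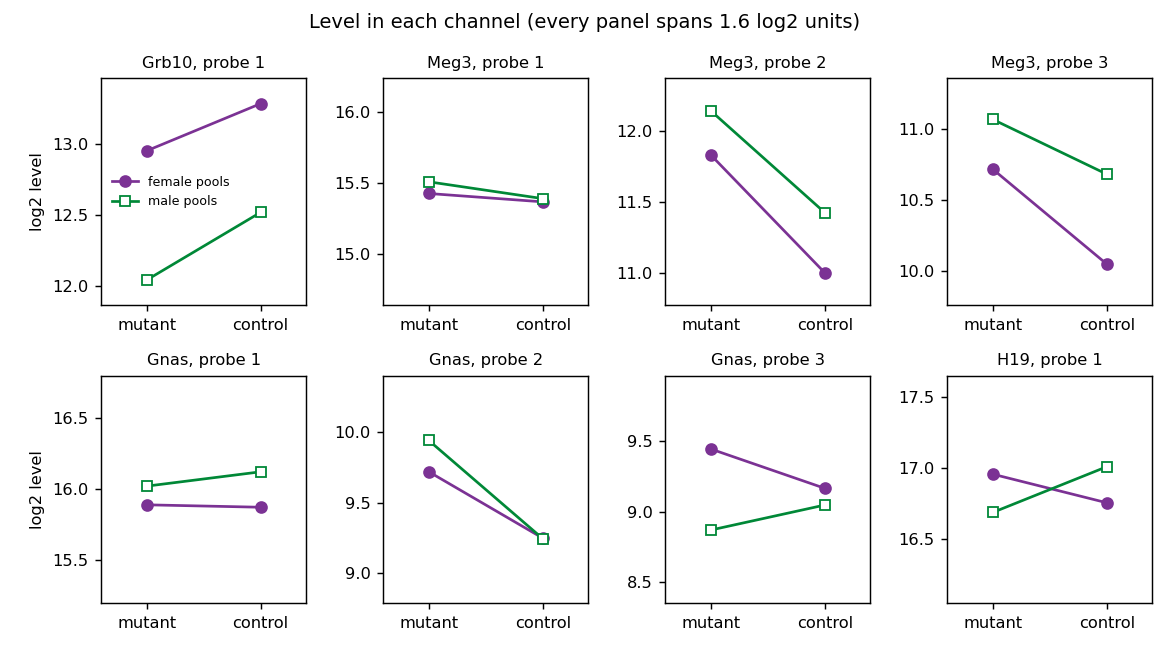
Log2 levels are drawn in the mutant and the control channel of each array, with a line joining the channels of one array, for Grb10, the probes of Meg3 and Gnas, and the brightest probe of H19. The mutant is the lower channel for Grb10 and the higher one for Meg3 and for Gnas probe 2 on both arrays, and the lines of H19 cross.

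Gnas, the locus of the stimulatory G protein alpha subunit, likewise differed between its probes. The brightest probe, on chr2:174171933-174171992, was at 15.89 and 16.02 in the mutant and 15.87 and 16.12 in the control channels (mean ratio -0.042 ± 0.084). Probe 2, on chr2:174122337-174122396, was at 9.72 and 9.94 in the mutant and 9.25 and 9.25 in the control channels. At that upstream probe both mutant levels were above both control levels, with a mean ratio of 0.58 ± 0.16 (limma unadjusted p = 0.00586, adjusted p = 0.929 over all probes). Probe 3, between the others, had ratios of 0.28 and -0.18, and probe 4 was not well above background. Which Gnas transcript each probe reports was not assigned here.

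H19 and Cdkn1c moved in opposite ways on the arrays. H19, a maternally expressed non-coding RNA that restrains growth, was at 16.96 and 16.69 in the mutant and 16.76 and 17.01 in the control channels at its brightest probe, shown first among the sequences above. The ratios were 0.20 and -0.32, and at the dimmer probe 0.040 and 0.37, so the signs of the probes differed on the male array. That second probe was very dim, at 7.17 and 7.55 in the mutant and 7.13 and 7.17 in the control channels. Igf2, the paternally expressed growth factor of the same cluster, was at 0.24 and -0.83. Cdkn1c, the cyclin-dependent kinase inhibitor p57, was at 16.61 and 16.27 in the mutant and 16.42 and 16.62 in the control channels, with ratios of 0.19 and -0.35. In both genes the groups overlapped and the arrays gave opposite signs, as did 56.5% of all genes and 19 of the 32 members.

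The other members of the Kcnq1 cluster on chromosome 7 had mean ratios between -0.21 and -0.016. Neighbours outside the 33 genes went both ways, with Nap1l4 at 0.40 and 0.25, Tssc4 at 0.49 and 0.070 and Osbpl5 at -0.11 and -0.32. Ascl2, a transcription factor of the trophoblast, was at 8.90 and 8.66 in the mutant and 8.91 and 9.07 in the control channels. Both mutant levels were below both control levels, but by 0.010 only on the female array (mean ratio -0.21 ± 0.28). Slc22a18, a transporter, was at 9.69 and 10.00 in the mutant and 9.96 and 10.05 in the control channels, which overlapped (mean ratio -0.16 ± 0.15). Kcnq1ot1, the paternally expressed non-coding RNA that silences its neighbours in cis, had ratios of -0.089 and 0.056, and Phlda2, which restrains growth of the placenta, 0.017 and -0.11.

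In the Igf2r cluster on chromosome 17, Slc22a3, a cation transporter, was at 7.02 and 6.85 in the mutant and 7.22 and 7.09 in the control channels. Both mutant levels were below both control levels (mean ratio -0.22 ± 0.029), at a dim probe. With the processed signals in place of normexp and loess its ratio was -0.54, and it was -0.54 in the authors' deposited table. Airn, the paternally expressed non-coding RNA that silences Igf2r in cis, had 4 probes with mean ratios from -0.30 to -0.057, all higher on the female and lower on the male array. Copg2, a coat protein gene, overlaps the paternally expressed Mest. It was at 11.25 and 11.25 in the mutant and 11.41 and 11.37 in the control channels, with mean ratios of -0.14 ± 0.031 and -0.19 at its probes. Mest, a hydrolase-like protein of the mesoderm, was at -0.14 and 0.20. The probes of Mest and Copg2 lie side by side on opposite strands of chromosome 6.

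In the Prader-Willi cluster on chromosome 7, Ndn, a MAGE-family protein that restrains proliferation, was the member with one direction. It was at 10.93 and 10.99 in the mutant and 10.84 and 10.72 in the control channels, and the groups did not overlap (mean ratio 0.18 ± 0.13). Its relative Magel2 was at 0.16 and -0.28, and Mkrn3, a ring finger protein, at -0.0067 and 0.19. Snrpn, a splicing protein, was at -0.16 and 0.21 at its brightest probe and had negative means at the other 2 probes (-0.043 and -0.19).

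The Peg10 cluster on chromosome 6 held members on either side of 0. Sgce, epsilon-sarcoglycan, was at 11.76 and 12.26 in the mutant and 11.61 and 11.99 in the control channels, higher on each array but with overlapping groups (mean ratio 0.21 ± 0.089). Peg10, a retrotransposon-derived gene that lies head to head with Sgce, was at 0.023 on the female and -0.74 on the male array. The mean ratio of -0.36 was -0.62 with the processed signals. Its dimmer probe had 0.24 and -0.28, a mean of -0.024, so the low value of Peg10 rests on the male array and is larger at the brightest probe. Asb4, an ankyrin repeat protein, was at 0.36 and -0.053, and Ppp1r9a, neurabin, at 0.0012 and -0.25.

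**Figure D4:**
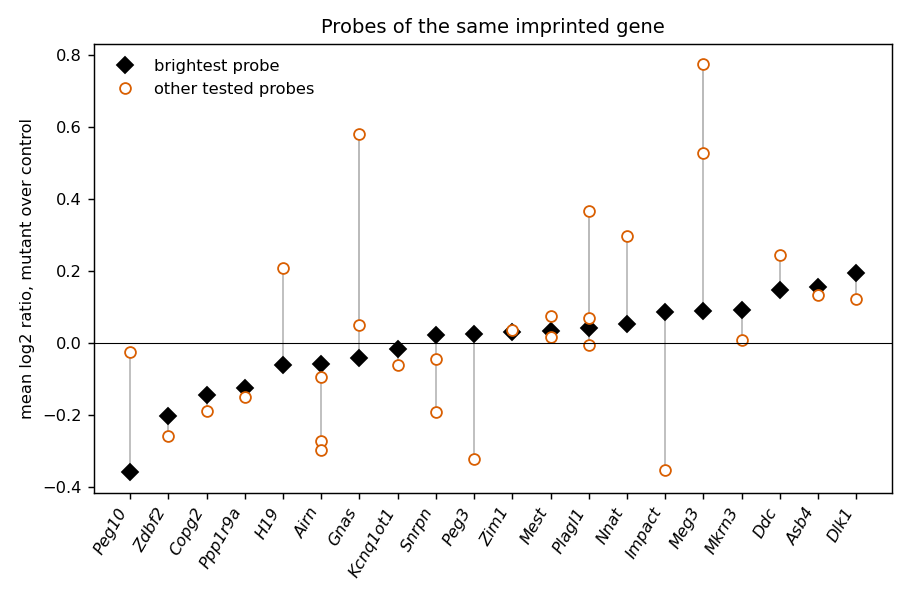
Mean log2 ratios over the 2 arrays are plotted for each tested probe of the 20 members with more than 1. Diamonds are the brightest probes, which stand for the genes, and open circles the others. Meg3 and Gnas have dimmer probes at 0.77 and 0.58, far above their brightest.

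The remaining members had mean ratios between -0.20 and 0.087 at their brightest probes. Plagl1, a zinc finger factor that regulates other imprinted genes, was at 0.052 and 0.034, and its probe 3 at -0.018 and 0.75, with means of -0.0048 and 0.069 at its other dimmer probes. Peg3, a zinc finger protein whose start lies beside that of Usp29, had ratios of -0.084 and 0.13, and its dimmer probe -0.012 and -0.63. Usp29, a deubiquitinating enzyme, was at 0.030 and -0.12, and Zim1, a zinc finger gene nearby, at 0.066 and -0.0049. Nnat, a small membrane protein, was at 12.56 and 12.76 in the mutant and 12.48 and 12.73 in the control channels, which overlapped (mean ratio 0.052 ± 0.035). Slc38a4, an amino acid transporter, was at 13.4375 and 13.3377 in the mutant and 13.4995 and 13.3777 in the control channels, which overlapped (mean ratio -0.051 ± 0.016). Impact, which inhibits the kinase Gcn2, was at 0.19 and -0.012, and at -0.27 and -0.43 at its dimmer probe. Zdbf2, a zinc finger gene with a growth role in the mouse, was at 0.040 and -0.45, and its dimmer probe at 0.040 and -0.55.

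The probes of a gene did not always share a sign. Of 28 further tested probes of these genes, 20 had the sign of the brightest probe and 8 the opposite one, in 6 genes. Among the 60 tested probes 5 had an unadjusted p under 0.05, against 3.83% of all tested probes, and 0 passed an adjusted p of 0.05. They were the Grb10 probe, probes 2 and 3 of Meg3, probe 2 of Gnas and the dimmer probe of Impact.

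Of 41 other imprinted genes, 37 were measured, and 0 passed the test in either direction. On both arrays 9 were higher and 7 lower, against 22.1% and 21.4% of all genes. At an unadjusted p under 0.05 in limma there were 2, against 3.99% of all genes. Their median ratio was -0.030 (0.051 on the female and -0.037 on the male array). Calcr, the calcitonin receptor, was at 7.24 and 7.39 in the mutant and 8.13 and 7.85 in the control channels, which did not overlap (mean ratio -0.68 ± 0.31, limma adjusted p = 0.801). Blcap, which surrounds Nnat, was at 10.71 and 10.46 in the mutant and 10.30 and 10.10 in the control channels, also separate (mean ratio 0.39 ± 0.041). Groups were separate for 12.1% of all genes in the higher and 11.5% in the lower direction. Calcr, Blcap and the next genes, Gatm and Th, were picked for the largest mean ratios of one sign on both arrays. Gatm, an enzyme of creatine synthesis, was at 0.045 and 0.67, and Th, tyrosine hydroxylase and also a neuron marker here, at 0.38 and 0.29.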

How the data were processed

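Mutant and control ureters were compared on 2 two-colour arrays, each labelled from 150 ng of RNA. The scanner files came from Agilent Feature Extraction, version 10.7.3.1, which the submitters' processing notes name, with probe positions on mm9. Per the file headers, the deposited mean signals and local backgrounds are raw intensity values, and the processed signals, also intensity, had background subtracted and dyes balanced by LOWESS. The authors' deposited series table holds a score per probe, a signed linear fold of unstated steps and unknown centring. Its log2 values correlated with the ratios here at 0.906 and 0.940, which fixes its direction as mutant over control, and its column medians were 1.

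Background was corrected by normexp (offset 50) and arrays normalised by loess (span 0.3) in limma 3.58.1 under R 4.3.3. Flagged spots (3.35% and 3.05%) were left out, the 4 spots of a probe averaged and the ratio of array 2 turned. Testing required a share over 0.5 of a probe's spots well above background in 1 group on both arrays, and a gene took its brightest tested probe. Names followed RefSeq accessions (28328 of 39429 probes matched). The limma functions lmFit and eBayes tested the mean ratio against 0 (1 residual and 6.14 prior degrees of freedom), adjusted over all genes. The test was checked on data simulated from its own fitted model, which does not show how it performs on these 2 arrays. Alternatives were the processed signals, median centring, other dim-probe filters, the mean over probes, offset 0, separate channels, the authors' table and leaving out an array. Levels followed Aquantile normalization, and summed levels are linear with the offset subtracted. Values per channel are given for the 12 members with the largest mean ratio of one sign on both arrays and for H19, and beyond this rule for Cdkn1c, Meg3 and Gnas probes, chosen after their values were seen. The members and lists were chosen with earlier results of these data known. The sequence of 1 Meg3 probe is not reported here.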

Additional observations from a re-analysis of the deposited data

Results flagged for a closer look

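Among the members, 6 had ratios of at least 0.1 in size and of opposite sign on the array of female ureters and the array of male ureters. H19 was at 0.20 on the female and -0.32 on the male array, Cdkn1c at 0.19 and -0.35, and Magel2 at 0.16 and -0.28. Ddc was at 0.40 on the female and -0.11 on the male array. Mest was at -0.14 on the female and 0.20 on the male array, and Snrpn at -0.16 and 0.21. Sex, dye orientation and array cannot be told apart, and the difference between the arrays was not tested.

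Probes that did not stand for their gene reached an unadjusted p under 0.05 in limma in 4 cases, with mean ratios of 0.77 and 0.53 for Meg3 probes 2 and 3, 0.58 for Gnas probe 2 and -0.35 for the dimmer probe of Impact. None passed the adjusted threshold, and their brightest probes had ratios of 0.089, -0.042 and 0.087.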

How the results depend on the processing

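With each alternative that allows a test, 0 members passed the adjusted threshold in limma, while 663 to 1087 genes had an unadjusted p under 0.05. The number of genes that passed, 6 as reported, was 11 with the processed signals, 0 with median centring, 0 with no filter on dim probes, 10 with probes above background in both groups, 14 with a normexp offset of 0 and 0 with the 4 channels fitted separately. Members lower on both arrays numbered 10 with the processed signals (25.2% of all genes there) and 16 with median centring (38.2%). Members higher on both numbered 1 with median centring (15.4%) and 11 with the mean over probes (22.4%).

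Under median centring the median ratio was -0.14 for all members, -0.25 for maternally and -0.11 for paternally expressed members. The paternally expressed median was otherwise 0.024 with the processed signals, 0.029 with no filter, 0.025 with offset 0, 0.029 without members imprinted in some tissues only and -0.038 with the mean over probes. The maternally expressed median was -0.070 and the difference -0.099 without members imprinted in some tissues only, -0.015 and -0.049 without members measured by 1 probe alone, and the difference was -0.070 with the mean over probes. Leaving out either array gave -0.051 to 0.030 for all members, -0.18 to 0.0090 for maternally and 0.034 to 0.040 for paternally expressed members, and -0.22 to -0.031 for their difference.

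With both arrays kept, mean ratios changed sign in 15 cases. Leaving out an array is not counted in these. It also changed the sign for each of the 19 members whose arrays gave opposite signs, on 1 of the 2 arrays. With the mean over probes H19 was 0.074, Peg3 -0.15, Snrpn -0.070, Impact -0.13 and Gnas 0.20. With median centring Meg3 was -0.091, Peg3 -0.14, Zim1 -0.088, Mest -0.15, Plagl1 -0.14, Snrpn -0.083, Nnat -0.11 and Impact -0.077. In the authors' deposited table Peg3 was -0.0056 and Gnas 0.0083. The cause was not tested. A single array leaves no degrees of freedom, so it gives no calls. No paired analysis was possible because each array is already a ratio of mutant over control and there is 1 such group.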
